A study of Mus musculus with 3 samples.

Results

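Plasma cells of the mouse liver were examined in 3 single-cell RNA libraries, with 1 library for each of control, high-fat diet (HFD) and carbon tetrachloride (CCl4). A barcode, the tag that stands for 1 captured cell, counted as a plasma cell when it had at most 30% mitochondrial UMIs, at least 5 UMIs of Jchain, at least 2 UMIs summed over Mzb1, Derl3, Tnfrsf17, Eaf2 and Prdm1, and no UMI of Ms4a1, Siglech or Cd3e. A UMI is a tag that counts 1 captured RNA molecule. The members were therefore chosen by their measured values, and the levels of these genes in them are a description of the choice. This gave 239 plasma cells among 36990 barcodes, of which 21 came from the control library, 177 from the HFD library and 41 from the CCl4 library.

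All 6 mice were male wild-type C57BL/6, given as C57BL/6J in the study's methods, and were aged 8 weeks when the study began. The cells of 2 mice were pooled for each library. Control mice were untreated and kept under standard conditions. The HFD mice were fed for 4 months on feed in which fat gave 60% of the calories, as a model of steatohepatitis. The CCl4 mice were kept on chow for 3 months and then received 10% CCl4 into the peritoneum, 0.1 mL per injection, 2 injections per week for 4 weeks, as a model of liver fibrosis. The age of the control mice at sampling is not given in the sources used here. Treatment and library preparation cannot be told apart, and with 1 library per condition no test across mice was possible. Every interval below is a 95% exact interval of counting error only, and the spread between mice was not measured. Hepatocytes and nonparenchymal cells had been counted and mixed 1:1 before capture, so a share of barcodes is not a share of the tissue, and fewer plasma cells cannot be told apart from more captured cells of other types.

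Plasma cells are the end stage of the B cell lineage. They stop presenting antigen, enlarge the endoplasmic reticulum (ER) and release antibody in bulk, a program set by the transcription factors Blimp-1 (Prdm1), IRF4 and XBP1. Jchain encodes the joining chain that links IgA into dimers and IgM into pentamers, forms that the polymeric immunoglobulin receptor can carry across epithelia. In the liver, IgA plasma cells are best known as cells that share their origin with the gut mucosa, while IgM and IgG are the antibodies of the systemic response.

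The Jchain counts show where the threshold fell. In the control library 11126 barcodes had no Jchain UMI, 86 had 1, 2 had 2 to 4, 1 had 5 to 19 and 30 had 20 or more. The HFD library had 11993, 675, 36, 17 and 263 barcodes in the same ranges, and the CCl4 library 12610, 75, 1, 7 and 68, so few barcodes lay near 5 UMIs in any library. Not all barcodes above it were members, since the other genes of the rule removed some. Jchain (chromosome 5, 88519809 to 88527891, minus strand, GRCm38) held between 60 and 1016 UMIs per plasma cell in the control library with a median of 286, between 10 and 475 with a median of 95 in the HFD library, and between 16 and 298 with a median of 81 in the CCl4 library.

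Plasma cells made up 0.187% of barcodes in the control library (21 of 11245, interval 0.116 to 0.285%), 1.36% in the HFD library (177 of 12984, 1.17 to 1.58%) and 0.321% in the CCl4 library (41 of 12761, 0.231 to 0.436%). The intervals of the HFD library and of both others did not overlap, while those of the control and CCl4 libraries did. Of the barcodes with 5 or more Jchain UMIs, which numbered 31, 280 and 75 in the control, HFD and CCl4 libraries, 4, 63 and 30 had under 2 UMIs of the other rule genes, and a further 6, 40 and 4 carried Ms4a1, Siglech or Cd3e. Of the latter, 3, 28 and 3 failed on a single UMI. Just inside the rule, 0, 46 and 10 members had exactly 2 UMIs of the other rule genes. Among barcodes with 2 to 4 Jchain UMIs, 1 HFD barcode met the rest of the rule. Barcodes with 0 or 1 Jchain UMI were not counted in this way. The condition on the other rule genes weighs more on shallow cells, and the plasma cells of the control library were deeper, with a median of 7847 UMIs and 2200 genes per cell against 4246 and 1328 in the HFD library and 3207 and 1131 in the CCl4 library.

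The label was checked on markers that the rule did not use. XBP1, which drives the expansion of the secretory apparatus, had 1363, 1531 and 1139 CPM of Xbp1 (counts per 1e+06 UMIs outside immunoglobulin genes) in the plasma cells of the control, HFD and CCl4 libraries. B cells of the same libraries, chosen by at least 1 UMI each of Ms4a1 and Cd79a and under 5 of Jchain, had 277, 104 and 106 CPM. The ratio of plasma cells to B cells for Xbp1 was 4.92 (4.10 to 5.88) in the control library, 14.7 (10.8 to 20.5) in the HFD library and 10.7 (7.13 to 16.7) in the CCl4 library. IRF4 was also above B cells, with 237, 221 and 205 CPM of Irf4 against 126, 43.5 and 58.5 CPM, though by under 2-fold in the control library. Of 14 tested plasma cell markers outside the rule, 12 were at least 2-fold above B cells in all 3 libraries, where 9.91% of all tested genes were. Igkc, the constant region of the kappa light chain, took 196736, 240646 and 178066 of every 1e+06 UMIs in plasma cells and 3439, 2644 and 1626 in B cells.

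Other defining markers of plasma cells were thin or shared in these libraries. Mzb1, a chaperone of antibody assembly, gave 3, 23 and 3 UMIs over all plasma cells of the control, HFD and CCl4 libraries, so it can have chosen few members. Derl3, an ER degradation protein, gave 82, 224 and 60 UMIs, and the survival receptor BCMA (Tnfrsf17) 88, 210 and 42. Syndecan-1 (Sdc1), the surface protein used to sort plasma cells, had 115, 134 and 134 CPM in plasma cells against 102, 64.9 and 176 CPM over all other barcodes, so its RNA did not set the plasma cells of the control or CCl4 library apart from the rest of the liver by 2-fold.

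Some of the genes that define B cells were at 0 in the members, which follows in part from the rule, since it barred Ms4a1. Of the 18 genes of the B cell identity list, 8, 13 and 8 had a UMI in the control, HFD and CCl4 plasma cells. Pax5, the factor that holds B cell identity, Spib, Cr2, Fcer2a and Ciita, the switch for antigen presentation, had no UMI in any of the 239 plasma cells. Ebf1, another B cell factor, had 61.3, 110 and 44.5 CPM in plasma cells against 1371, 677 and 618 CPM in B cells. Some B lineage RNA was retained, with the receptor chain Cd79a at 413, 335 and 347 CPM. The Y-linked gene Ddx3y gave 6481, 2599 and 2320 UMIs in the 3 libraries and the female-specific Xist 0, 3 and 0, as in male mice.

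Plasma cells were next set beside B cells of the same library, of which there were 576, 172 and 126. A gene counted as higher or lower when its CPM plus 10 differed by at least 2-fold in that direction in all 3 libraries, among genes with 100 CPM or more in plasma cells or B cells of every library and without the genes used to choose cells and immunoglobulin, mitochondrial and ribosomal protein genes. Of 1171 genes, 116 (9.91%) were higher in plasma cells and 29 (2.48%) were lower. Scaled to all UMIs, immunoglobulin included, 64 were higher and 126 lower, because immunoglobulin RNA takes up part of every plasma cell. That scaling moves plasma cell values against B cells by -0.43, -0.53 and -0.40 on the log2 scale in the control, HFD and CCl4 libraries.

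The secretory pathway held most of its tested genes above B cells. Of 24 tested genes for folding in the ER, 19 were higher and none lower, with a median log2 ratio of 2.39, 1.96 and 1.65 in the control, HFD and CCl4 libraries, against 0.01, -0.13 and 0.00 over all tested genes. Of 26 genes for translocation into the ER and N-glycosylation, 18 were higher and none lower, with medians of 2.20, 1.52 and 1.79. ER degradation had 4 of 5 higher, and transport from the ER to the Golgi 3 of 12. The medians of the folding and translocation genes stayed above 1 on the log2 scale in each library when all UMIs were the denominator.

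Named genes gave the size of this difference. Hsp90b1, which encodes the ER chaperone GRP94, had 10629, 4660 and 4610 CPM in plasma cells of the control, HFD and CCl4 libraries and 766, 392 and 542 CPM in B cells. Creld2, an ER disulfide isomerase, had 1447, 506 and 516 CPM in plasma cells and 43.0, 7.26 and 51.2 CPM in B cells. That made a ratio of 33.7 (25.2 to 45.5), 69.7 (23.6 to 340) and 10.1 (5.55 to 19.6), the HFD value resting on 3 UMIs in B cells. Each of these genes was higher in plasma cells of every library by more than its counting error.

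Sec11c, the catalytic subunit of the signal peptidase, had 2251, 1915 and 1878 CPM in plasma cells and was 14.5, 14.9 and 12.8 times the B cell level. Txndc5, a disulfide isomerase, had 1777, 1165 and 1157 CPM and was 33.5, 17.8 and 14.4 times the B cell level. Hspa5, the master ER chaperone BiP, had 3300, 1297 and 1433 CPM against 596, 300 and 494 CPM in B cells. These are genes that B cells also transcribe, and the difference was one of degree.

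Outside the ER, Tent5c, a poly(A) polymerase that stabilises immunoglobulin mRNA, was 32.3, 20.4 and 25.3 times the B cell level, with 521, 445 and 463 CPM in plasma cells. Pycard, the adaptor of inflammasomes, had 2037, 1165 and 659 CPM, which was 75.9, 20.9 and 16.4 times the B cell level. Trp53inp1, a stress protein linked to autophagy, was 20.1, 23.3 and 15.8 times higher. These ratios were of the same order as those of the ER genes.

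Ctla4, the inhibitory receptor best known from regulatory T cells, had 567, 228 and 258 CPM in plasma cells, from 74, 124 and 29 UMIs seen in 71.4, 35.6 and 39.0% of the cells. B cells had 3.36, 2.42 and 11 CPM of Ctla4, plasmacytoid dendritic cells (chosen by at least 2 Siglech UMIs) 3.74, 6.64 and 3.64 CPM, and T cells (at least 2 Cd3e UMIs) 306, 168 and 190 CPM. The interval of plasma cells lay above that of T cells in the control library (445 to 711 against 285 to 328 CPM) and overlapped it in the HFD library (190 to 272 against 143 to 195 CPM) and the CCl4 library (173 to 371 against 157 to 228 CPM). The T cell list gave 11, 18 and 10 UMIs over all plasma cells of a library, a total that the absence of Cd3e by the rule lowers.

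Of the 29 genes below B cells, 7 were in the B cell identity and MHC class II lists. Of 7 tested B cell identity genes, 4 were lower, and of 5 MHC class II genes 3 were lower and none higher, where 2.48% of all tested genes were lower. The class II chain H2-Aa was at 107, 156 and 214 CPM against 2557, 1517 and 1343 CPM in B cells, while Cd74, the invariant chain, still had 1524, 1429 and 1317 CPM. The plot of gene lists against B cells shows ER folding, degradation and translocation to the right of 0 and class II and B cell identity to the left in all libraries.

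**Figure D1:**
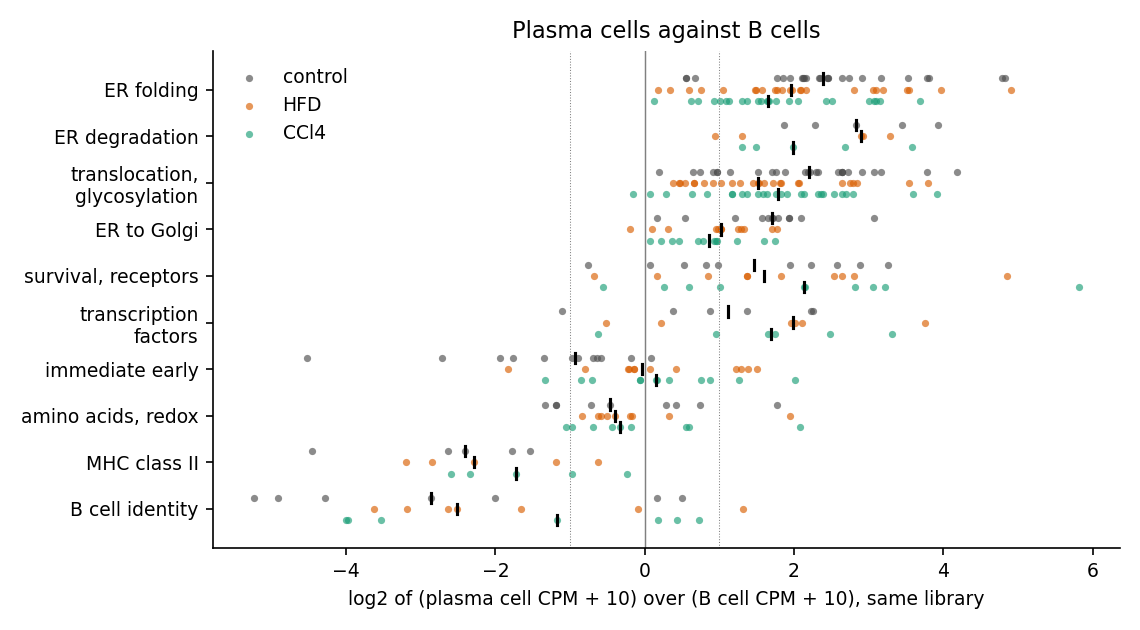
Log2 ratio of (CPM + 10) in plasma cells over (CPM + 10) in B cells of the same library, 1 point per tested gene and library, black bars at the list medians and dotted lines at a 2-fold difference either way. ER folding genes have medians of 2.39, 1.96 and 1.65 in the control, HFD and CCl4 libraries.

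Plasmacytoid dendritic cells, another cell type with a developed ER, numbered 182, 55 and 106. Of 1229 genes tested against them, 84 (6.83%) were higher in plasma cells and 114 (9.28%) lower in all 3 libraries. ER folding genes were again higher, 16 of 24, as were 14 of 26 translocation and 4 of 5 degradation genes, with none lower. Of 5 MHC class II genes, 2 were lower and none higher.

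The promoters of the folding genes were searched for the ER stress response element, the site where ATF6 with NF-Y is known to act, spelled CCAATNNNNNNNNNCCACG and read on both strands. RefSeq promoters of GRCm38 cover 250 bases before to 50 bases after each start. The element was present in 39 of 32851 promoters (0.119%), which belong to 37 of 27025 genes (0.137%), and in the promoters of 8 of the 26 ER folding genes that had an entry (30.8%), namely Calr, Canx, Creld2, Dnajc3, Ero1b, Hsp90b1, Hspa5 and Pdia6. The list is made of textbook targets of the unfolded protein response, so this share describes the list. Of the degradation genes, Derl3 and Syvn1 held it, 2 of 11, and of 21 translocation genes with an entry none did. The site bound by XBP1, searched as TGACGTGG on both strands, which can overlap the end of the first element, was in 222 promoters (0.676%), among them, of the genes in the lists used here, those of Txndc5, Txndc11, Pou2af1, Kdelr3, Sec24d, Hk2, Vegfa and Cd3e. The 12 genes with the highest ratio to B cells in the HFD library were taken among those above B cells in every library. Of these 12, Creld2 and Hsp90b1 held the ER stress response element. Ctla4, Ly6c2, Pycard, Slpi, Tent5c, Txndc5 and Xbp1 did not, and Glipr1, Sec11c and Trp53inp1 had no promoter entry. Promoters are shown for 3 genes that held the element and were well above B cells in each library, with the element in capitals.

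The promoter of Hsp90b1 (GRCm38, chr10:86705395-86705694, minus strand) held the element on each strand, with first bases 212 and 107 bases before the start.
Hsp90b1: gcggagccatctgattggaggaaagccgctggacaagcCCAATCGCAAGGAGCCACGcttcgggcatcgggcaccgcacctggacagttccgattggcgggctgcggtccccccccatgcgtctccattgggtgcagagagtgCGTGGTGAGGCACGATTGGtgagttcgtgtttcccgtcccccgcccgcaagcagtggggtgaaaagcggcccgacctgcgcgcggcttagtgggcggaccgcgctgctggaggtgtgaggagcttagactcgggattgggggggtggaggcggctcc
The promoter of Creld2 (GRCm38, chr15:88819396-88819695, plus strand) held 1 element on the reverse strand, beginning 126 bases before the start.
Creld2: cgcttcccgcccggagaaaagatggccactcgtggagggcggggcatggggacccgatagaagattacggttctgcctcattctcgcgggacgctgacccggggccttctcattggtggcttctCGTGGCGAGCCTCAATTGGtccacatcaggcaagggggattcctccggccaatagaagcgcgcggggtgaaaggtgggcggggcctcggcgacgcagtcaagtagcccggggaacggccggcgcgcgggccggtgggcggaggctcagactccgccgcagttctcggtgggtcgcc
The promoter of Hspa5 (GRCm38, chr2:34771840-34772139, plus strand) held 1 element on the forward strand, beginning 65 bases before the start.
Hspa5: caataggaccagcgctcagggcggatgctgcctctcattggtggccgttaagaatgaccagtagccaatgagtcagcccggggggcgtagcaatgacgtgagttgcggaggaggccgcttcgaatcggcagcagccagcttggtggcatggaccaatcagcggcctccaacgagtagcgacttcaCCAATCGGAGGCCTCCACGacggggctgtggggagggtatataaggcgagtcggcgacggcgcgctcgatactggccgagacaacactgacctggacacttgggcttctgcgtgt

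Antibody RNA took a large part of each plasma cell. The share of a cell's UMIs in immunoglobulin genes, that is the variable, joining and constant genes of the heavy, kappa and lambda loci, had a median of 21.7% (range 5.87 to 62.9%) in the control library, 31.0% (2.58 to 55.4%) in the HFD library and 23.4% (5.23 to 44.8%) in the CCl4 library. The ranges of the 3 libraries overlapped almost fully. In B cells the median was 0.672, 0.391 and 0.292%, and the highest B cell of any library reached 2.68%, just above the lowest plasma cell. Plasma cells, at most 1.36% of barcodes, held 58.1, 59.4 and 53.1% of all immunoglobulin UMIs of their library.

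**Figure D2:**
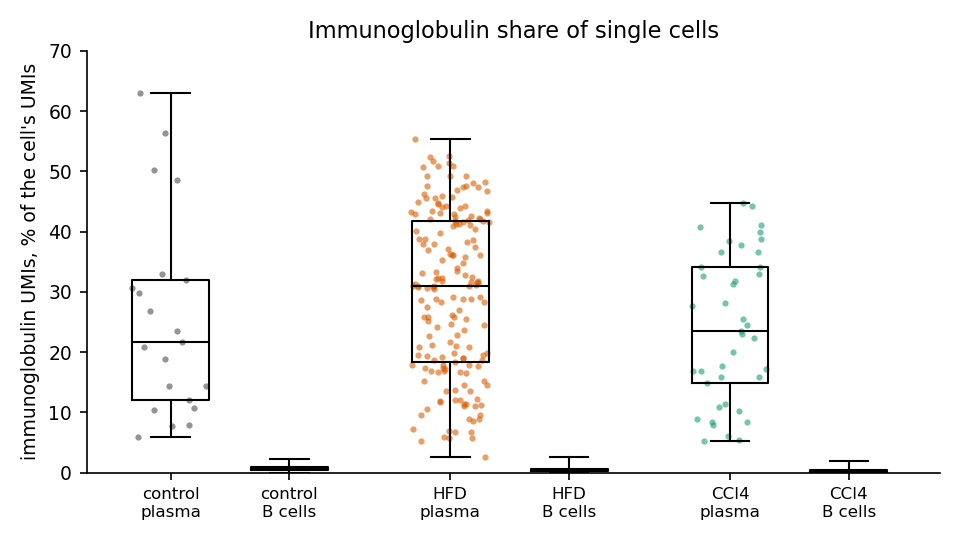
Share of each cell's UMIs that fell in immunoglobulin genes, in percent, for plasma cells (1 point per cell) and B cells of each library, with boxes at the median and quartiles and whiskers over the full range. Plasma cell medians lie at 21.7, 31.0 and 23.4% and B cell medians under 1%.

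Free antibody RNA was present in the suspensions. T cells, which do not make antibody, carried an Igkc UMI in 9.89% of cells in the control library, 51.0% in the HFD library and 8.81% in the CCl4 library, at 59.0, 289 and 56.4 per 1e+06 of all UMIs. Those levels lay far below the plasma cell values of Igkc and were highest in the library with most plasma cells.

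The class of antibody differed between the libraries. A plasma cell was given a class when it had at least 10 UMIs of heavy constant genes and 1 gene held at least 70% of them. All 239 plasma cells met both conditions, and the called gene held a median of 100, 99.8 and 100% of the heavy constant UMIs in the control, HFD and CCl4 libraries, with a lowest value of 77.5% in an HFD cell. The called gene held over 90% in 20, 171 and 39 cells, so 9 cells carried a larger part of other heavy constant genes.

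In the control library 20 of 21 plasma cells expressed Igha, the constant gene of IgA (95.2%, interval 76.2 to 99.9%), 1 expressed Ighg1 and none Ighm, where 0 of 21 cells allows a share of up to 14.3% at 3 counts and has an exact upper bound of 16.1%. In the HFD library 99 of 177 were IgA (55.9%, 48.3 to 63.4%), 77 were IgG (43.5%, 36.1 to 51.2%) and 1 was IgM (0.565%, 0.0143 to 3.11%). The IgG cells divided into 24 with Ighg1, 24 with Ighg2b, 27 with Ighg2c and 2 with Ighg3. In the CCl4 library 16 of 41 were IgM (39.0%, 24.2 to 55.5%), 16 were IgA and 9 were IgG (22.0%, 10.6 to 37.6%).

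The control library was therefore nearly all IgA, the HFD library was IgA and IgG, and IgM cells were frequent in the CCl4 library alone, with intervals for the IgM share that did not overlap those of the other libraries. As counts, the HFD library held 99 IgA cells against 20 in the control library among a similar number of barcodes. No plasma cell was called IgD or IgE. Kappa was the light chain of 21, 170 (96.0%) and 39 (95.1%) plasma cells, lambda of 0, 6 and 2, and 1 HFD cell had no call.

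**Figure D3:**
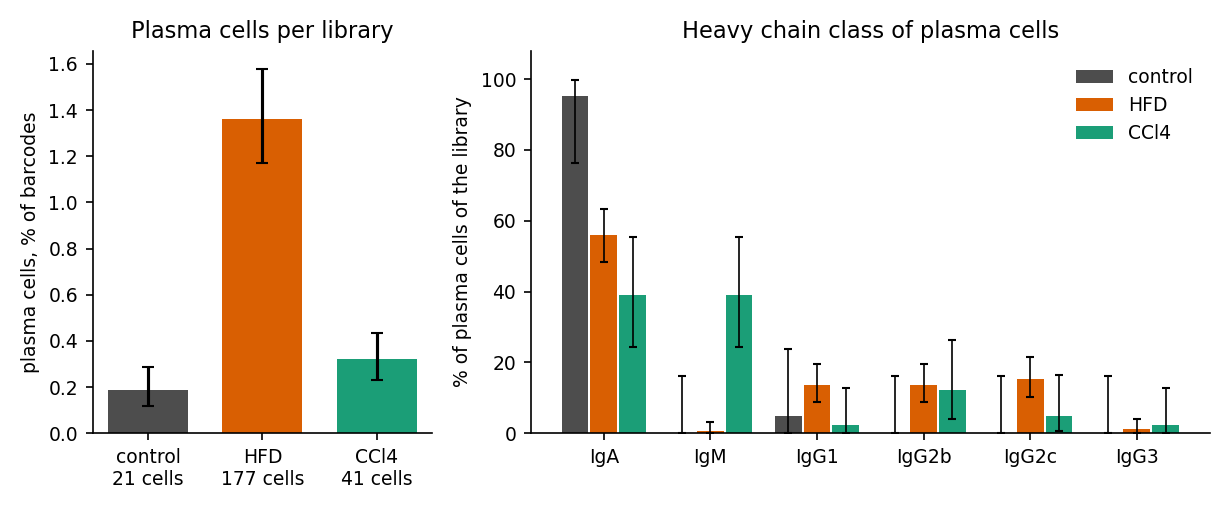
Plasma cells as a percent of barcodes (left) and the percent of each library's plasma cells by heavy chain class, IgG split by constant gene (right), with exact 95% intervals of counting error. IgA holds 20 of 21 control cells, IgA and IgG hold 99 and 77 of 177 HFD cells, and IgM and IgA hold 16 each of 41 CCl4 cells.

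The barcodes with 5 or more Jchain UMIs that the rule left out were classed in the same way. The 10 such barcodes of the control library held 6 IgA, 2 IgM and no IgG cell, while 2 had no class, so IgM was seen there although no control member was IgM. The 103 of the HFD library held 31 IgA, 66 IgG and 2 IgM cells, a larger part of IgG than inside the rule. The 34 of the CCl4 library held 9 IgA, 13 IgG and 12 IgM cells. Their immunoglobulin share had a median of 10.6, 33.3 and 24%, close to that of the members in the HFD and CCl4 libraries, and the rule left out the IgG cells of the HFD library more often than its IgA cells, so the HFD split between IgA and IgG depends on the rule.

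The antibody RNA of a cell was also read by class. In the HFD library the immunoglobulin share had a median of 25.9% in IgA cells, 37.8% in Ighg1 cells, 39.5% in Ighg2b cells and 32.4% in Ighg2c cells. In the CCl4 library it was 16.4% in IgA cells and 32.2% in IgM cells. The cells of the classes overlapped almost wholly, from 2.58 to 55.4% in HFD IgA and 5.70 to 51.0% in Ighg1 cells, and from 5.23 to 40.0% in CCl4 IgA and 8.90 to 44.3% in IgM cells. Jchain, although used by the rule, also varied by class, with a median of 133 UMIs in HFD IgA cells against 57.5, 82 and 93 in Ighg1, Ighg2b and Ighg2c cells, and of 123 in CCl4 IgM cells against 55 in CCl4 IgA cells. Since each member needed at least 5 Jchain UMIs, cells of any class without Jchain were not among them.

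Variable genes were read from few UMIs, as this kit sequences the other end of the transcript. A heavy variable gene could be given to 2, 75 and 9 plasma cells of the control, HFD and CCl4 libraries, a light one to 12, 71 and 21, and both to 1, 28 and 4. The 28 HFD cells with both fell into 26 combinations of heavy gene, light gene and class. The combinations Ighv5-17 with Iglv3 and Igha, and Ighv9-1 with Igkv19-93 and Ighg1, were each seen in 2 cells. Light variable calls are doubtful, since Iglv1, a lambda gene, was the call of 1, 16 and 3 cells, of which 1, 12 and 3 were kappa by their constant gene. No dominant combination was detectable at this depth, and whether cells of a combination shared a junction was not tested.

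Among plasma cells, Slpi was highest in the IgG cells of the HFD library. Slpi (chromosome 2, 164354070 to 164389095, minus strand, GRCm38) encodes the secretory leukocyte protease inhibitor, which blocks neutrophil elastase and cathepsin G and is known as a product of mucosal epithelium and myeloid cells. The plasma cells of the control library had 18 UMIs of it (138 CPM), those of the HFD library 10577 UMIs (19458 CPM) and those of the CCl4 library 89 UMIs (792 CPM). B cells of the same libraries had 69.1, 72.6 and 3.66 CPM, T cells 37.6, 39.5 and 1.61 CPM, and all barcodes with under 5 Jchain UMIs together 80.1, 81.0 and 7.84 CPM. The HFD level was thus not shared by the rest of that library.

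Within the HFD library the 77 IgG cells had 39986 CPM of Slpi (39201 to 40782) and the 99 IgA cells 2310 CPM (2139 to 2490). The IgG cells held a median of 58 UMIs, with quartiles at 4 and 158 and the highest at 1144. The IgA cells held a median of 0 UMIs and a highest of 232. At least 5 UMIs of Slpi were found in 56 of 77 IgG cells (72.7%, 61.4 to 82.3%) and in 21 of 99 IgA cells (21.2%, 13.6 to 30.6%), so the groups overlapped but their shares did not.

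No single cell made this difference, since without its top cell the IgG level was 36002 CPM and the IgA level 1544 CPM. In 1 IgG cell Slpi reached 16.2% of all UMIs. By constant gene, the level was 27420 CPM in Ighg1 cells, 47606 CPM in Ighg2b cells, 47096 CPM in Ighg2c cells and 6904 CPM in the 2 Ighg3 cells. Ighg1, Ighg2b and Ighg2c cells thus stood above the IgA cells of the same library. The Ighg3 value rests on 2 cells with 11 and 34 UMIs and could not be ranked.

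The HFD barcodes that the rule left out served as cells it had not used. Among them, 66 IgG cells had 48721 CPM of Slpi (47784 to 49672) and a median of 112 UMIs, and 31 IgA cells had 3657 CPM and a median of 1 UMI. In the CCl4 library Slpi was at 1540 CPM over 9 IgG cells, 937 CPM over 16 IgM cells and 94.9 CPM over 16 IgA cells. Of the 49 IgG UMIs 23 were in 1 cell, and without it the IgG level was 918 CPM, so IgG and IgM cells could not be ranked there. The 13 IgG barcodes left out there had 7050 CPM, with 53.7% of the UMIs in 1 cell. They held between 0 and 109 UMIs each, and the 12 IgM barcodes left out between 0 and 46. The control library had 1 IgG cell, and its 20 IgA cells had 146 CPM with at most 7 UMIs.

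**Figure D4:**
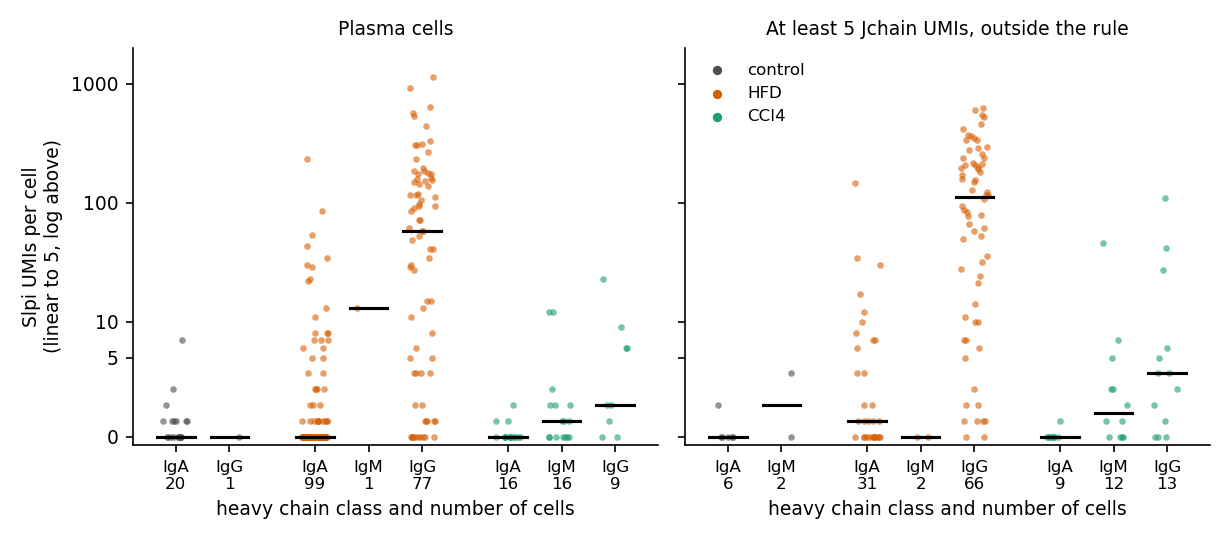
UMIs of Slpi per cell by heavy chain class and library, for plasma cells (left) and for barcodes with 5 or more Jchain UMIs outside the rule (right), with black bars at the medians and an axis that is linear to 5 and logarithmic above. HFD IgG cells have medians of 58 and 112 UMIs and HFD IgA cells of 0 and 1.

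A comparison of all genes between HFD IgA and IgG cells was added after the Slpi values had been seen. Of 1540 genes, 50 (3.25%) were at least 2-fold higher in IgA cells and 29 (1.88%) lower. Of 26 ER folding genes, none was higher in IgA cells and 2, Creld2 and Selenom, were lower, and of 26 translocation genes none passed in either direction.

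Besides Slpi, IgG cells of the HFD library were higher in a pair of Ly6 surface proteins. Ly6c2, a surface protein of monocytes and plasma cells, had 1177 CPM in IgG and 299 CPM in IgA cells, and Ly6a, which encodes Sca-1, had 1327 and 340 CPM. Outside the rule the order was the same, with 1265 against 186 CPM of Ly6c2 and 915 against 273 CPM of Ly6a. Cxcr4, the receptor for the bone marrow chemokine CXCL12, had 101 CPM in IgG and 20.4 CPM in IgA cells, and outside the rule 123 and 12.4 CPM.

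Oosp1, known from oocytes, had 55 UMIs spread over 33 IgG cells (222 CPM) and 4 UMIs in 2 IgA cells (13.6 CPM), and outside the rule 175 and 62.0 CPM. The lysosomal protease gene Ctss had 198 CPM in IgG and 61.1 CPM in IgA cells. Pon3, a paraoxonase, had the same CPM values as Ctss, but outside the rule the gap in Pon3 narrowed to 94.8 against 74.4 CPM. Elane, neutrophil elastase itself, also passed, but its 31 UMIs lay in 1 IgG cell.

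Of 5 tested homing genes, 1 was higher in IgA cells of the HFD library and 1 lower (Cxcr4), where 3.25 and 1.88% of all genes were. Itgb7, the beta chain of the gut homing integrin alpha4 beta7, had 91.7 CPM in IgA and 24.3 CPM in IgG cells. Both values were under 100 CPM, so Itgb7 was not among the 5 tested. Ccr10, the receptor for the mucosal chemokine CCL28, was under the level tested, with 30.6 and 4.05 CPM, and outside the rule 112 and 4.74 CPM. Ptp4a3, a phosphatase, had 112 against 20.2 CPM and Anxa2, a membrane-binding protein, 170 against 36.4 CPM, and both kept that order outside the rule at 124 against 23.7 CPM and 236 against 80.6 CPM.

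S100a6, a calcium-binding protein, had 316 CPM in IgA and 76.9 CPM in IgG cells, and the interferon-induced Ifitm1 129 and 16.2 CPM. Of 4 tested cell cycle genes 3 were higher in IgA cells, where 3.25% of all genes were, among them Mki67 at 166 against 32.4 CPM and Pclaf at 146 against 20.2 CPM. These rest on few cells, as 11 IgA cells held 86.1% of the cell cycle UMIs of their class. The chemokine gene Ccl4 passed the fold on 41 UMIs in IgA cells, of which 32 were in 1 cell.

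Levels in plasma cells were then compared between the libraries. Of 1852 genes, 313 (16.9%) were at least 2-fold higher in HFD than in control plasma cells and 361 (19.5%) lower. Of 1882 genes, 371 (19.7%) were higher in CCl4 than in control and 382 (20.3%) lower. CCl4 and HFD plasma cells were closer, with 88 of 1570 (5.61%) higher and 75 (4.78%) lower in CCl4. The control library was in both of the wider comparisons, and its 21 cells were the fewest and the deepest. The median log2 ratio over all tested genes was -0.31 for HFD and -0.30 for CCl4 against control.

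Most genes higher in HFD or CCl4 plasma cells were not particular to plasma cells. Only 8 of the 313 (2.56%) and 17 of the 371 (4.58%) also stood at least 2-fold above B cells and above all barcodes with under 5 Jchain UMIs in the library where they were higher. Of the lower genes, 132 of the 361 (36.6%) and 139 of the 382 (36.4%) did so in the control library. This rule was added after the data had been seen. The same share over all tested genes was not counted. Genes of each direction were already picked for a high level in that library, so these shares have no background. RNA of hepatocytes moved with the libraries, in both directions. The 12 hepatocyte markers summed to 15392 CPM in control, 74904 CPM in HFD and 97449 CPM in CCl4 plasma cells, and to 43367, 111937 and 154390 CPM in B cells. Of the 12, 11 were higher in HFD and in CCl4 than in control plasma cells, and Alb, serum albumin, had 1440, 13003 and 26182 CPM. Acute phase genes of the liver went the other way. Saa1, serum amyloid A, had 3163, 405 and 89.0 CPM in control, HFD and CCl4 plasma cells, 8309, 493 and 146 CPM in B cells and 12581, 578 and 190 CPM in all barcodes with under 5 Jchain UMIs. Saa2 had 4173, 210 and 80.1 CPM in plasma cells, and the metallothionein Mt1 had 2313, 151 and 596 CPM. Saa1 and Saa2 were among the most lowered genes against control in HFD and in CCl4, and Mt1 in HFD. Plasma cells held less of Saa1 than the other barcodes of each library. For Mt1 the CCl4 plasma cells lay above the CCl4 barcodes with under 5 Jchain UMIs, which had 409 CPM. The part of this RNA in the counts above was not tested. With the hepatocyte list left out of the denominator, or with all UMIs in it, the directions against control of Slpi, Ly6c2, Ly6a, Ccr9, Ccr10, Itgb7, Itga4, Cd44, Hsp90b1, Hspa5, Creld2, Calr, Pdia4, Fos and Jun were the same.

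Among the 8 genes above B cells and those other barcodes in the HFD library were Slpi, Ly6c2, Ly6a, Oosp1, Jun, Pon3 and Fut8. Fut8, the fucosyltransferase that modifies the antibody stem, had 99.5 CPM in control and 226 CPM in HFD plasma cells. Plasmacytoid dendritic cells were not compared separately by that rule. They had 816, 518 and 553 CPM of Ly6c2 and 807, 332 and 171 CPM of Ly6a in the control, HFD and CCl4 libraries. For Ly6c2 their HFD interval (409 to 646 CPM) overlapped that of HFD plasma cells (629 to 771 CPM). Ly6c2 had 161, 697 and 961 CPM in control, HFD and CCl4 plasma cells, 4.34 times (2.80 to 7.09) and 5.98 times (3.72 to 10.0) the control level. Ly6a had 237, 804 and 525 CPM. As IgG cells carried more of both, classes were also compared within IgA cells, where Ly6c2 had 170, 299 and 570 CPM and Ly6a had 178, 340 and 71.2 CPM. Of the 24 Ly6c2 UMIs of CCl4 IgA cells 14 were in 1 cell, and of the 21 of control IgA cells 10 were in 1 cell, and without these cells the levels were 267 and 91.2 CPM. The level over all control plasma cells without that cell was 86.2 CPM, so the ratios to control of Ly6c2 are uncertain by more than their counting error. The Ly6a value of CCl4 IgA cells rests on 3 UMIs, and its interval (14.7 to 208 CPM) overlapped that of control IgA cells (112 to 270 CPM). CCl4 IgM cells had 1041 CPM of Ly6a.

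Of 7 tested homing genes, 3 were lower in HFD than in control plasma cells (Ccr10, Itgb7 and Itga4) and 1 was higher, with 19.5% of all tested genes lower and 16.9% higher. The higher one was Itgb1, the beta1 integrin chain, at 116 CPM in HFD and 30.6 CPM in control plasma cells. In CCl4 4 of 5 tested were lower than in control, those 3 and Selplg, and none higher, with 20.3% of all genes lower. Ccr10 (chromosome 11, 101172997 to 101175443, minus strand, GRCm38) had 161 CPM in control (21 UMIs in 61.9% of cells), 18.4 CPM in HFD (10 UMIs in 4.52%) and 53.4 CPM in CCl4 plasma cells (6 UMIs in 12.2%). The ratio to control was 0.114 (0.0481 to 0.254) for HFD and 0.332 (0.110 to 0.850) for CCl4. Ccr9, the receptor for the small intestinal chemokine CCL25, had 13, 3 and 1 UMIs, which was 99.5, 5.52 and 8.90 CPM. Both receptors rest on few UMIs.

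Itgb7 (chromosome 15, 102215995 to 102231944, minus strand) had 291, 60.7 and 17.8 CPM, with ratios to control of 0.209 (0.127 to 0.342) and 0.0612 (0.0071 to 0.237). Its partner Itga4, the alpha4 integrin chain, had 995, 280 and 205 CPM, with ratios of 0.281 (0.221 to 0.358) and 0.206 (0.126 to 0.322). Cd44, the hyaluronan receptor, had 766, 215 and 294 CPM. For each of these the control level lay above the HFD and CCl4 levels by more than counting error. Summed over the 22 genes of the homing list, plasma cells had 2956, 1586 and 1495 CPM in the control, HFD and CCl4 libraries. The list was also highest in the control library in B cells (3428, 1904 and 1365 CPM) and in T cells (3012, 1841 and 1605 CPM). Itgb7 had 58.4 CPM in control and 18.3 CPM in CCl4 B cells. Whether the difference is particular to plasma cells was not tested.

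A pair of chemokine receptors of inflamed tissue and bone marrow was measured at low levels. Cxcr3, the receptor for interferon-induced chemokines, had no UMI in control plasma cells (upper bound 28.2 CPM) and 25.8 and 35.6 CPM in HFD and CCl4 plasma cells, so no difference was detectable at this depth. Cxcr4 had 61.3, 57.0 and 53.4 CPM, under the level tested.

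Since the control library was nearly all IgA, the homing genes were read again in IgA cells alone, an alternative chosen after the data had been seen. Ccr10 was at 170 CPM (105 to 260) in control, 30.6 CPM (14.0 to 58.0) in HFD and 119 CPM (38.5 to 277) in CCl4 IgA cells. Ccr9 was at 105, 6.79 and 23.7 CPM and Itgb7 at 291, 91.7 and 23.7 CPM. The order of control above HFD was kept for all of these within 1 class, while the Ccr10 intervals of control and CCl4 overlapped. For Ccr10 that order depends on the rule, since the 31 HFD IgA barcodes left out had 112 CPM, which lies within the control interval.

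**Figure D5:**
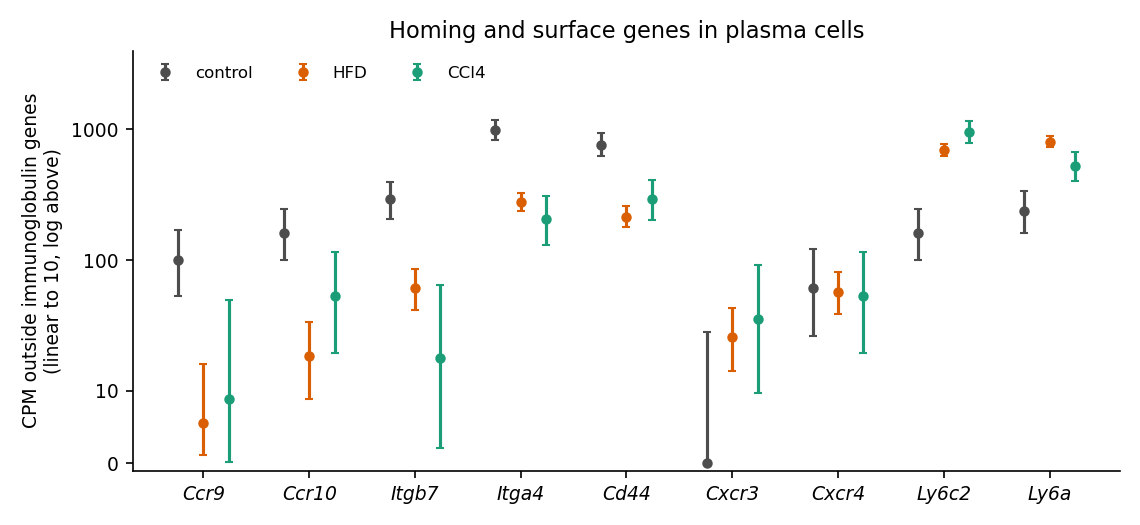
CPM of homing and surface genes in plasma cells of the 3 libraries, with exact 95% intervals of the counts and an axis that is linear to 10 and logarithmic above. Ccr10 lies at 161, 18.4 and 53.4 CPM and Ly6c2 at 161, 697 and 961 CPM in the control, HFD and CCl4 libraries.

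The ER folding genes were also compared between the libraries. Of 24 tested ER folding genes, 7 were lower in HFD and 6 in CCl4 than in control and none higher, with median log2 ratios of -0.66 and -0.62 against -0.31 and -0.30 over all genes, while 19.5 and 20.3% of all tested genes were lower, so the number past the fold was near the background and the list differed mainly in its median. Hsp90b1 was at 0.438 (0.411 to 0.468) of control in HFD plasma cells, from 10629 to 4660 CPM, and at 0.434 of control in CCl4. Hspa5 was at 0.393 and 0.434 of control, and Creld2 at 0.350 (0.289 to 0.423) and 0.357. Calr, the chaperone calreticulin, had 1953, 828 and 881 CPM and the disulfide isomerase Pdia4 had 2136, 942 and 819 CPM.

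Of 11 tested immediate early and stress genes, 4 were higher and 1 lower than in control both in HFD and in CCl4, where 16.9 and 19.7% of all tested genes were higher. Fos had 306, 785 and 792 CPM and Jun had 184, 765 and 721 CPM, while the chaperone gene Hsp90aa1 was the lower one, at 475, 178 and 214 CPM. Summed over the 15 genes of the list, plasma cells had 5146, 7482 and 6408 CPM in the control, HFD and CCl4 libraries. B cells had 9223, 4973 and 4559 CPM and T cells 8607, 6416 and 4934 CPM, both highest in the control library. The genes of this list are also induced by tissue digestion, and the part of the preparation in these differences was not tested.

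Cell cycle genes marked a larger part of the control than of the HFD plasma cells. At least 5 UMIs over the 22 genes of the list were found in 10 of 21 control cells (47.6%, 25.7 to 70.2%), 15 of 177 HFD cells (8.47%, 4.82 to 13.6%) and 8 of 41 CCl4 cells (19.5%, 8.82 to 34.9%), and the CCl4 interval overlapped both others. As control cells were deeper, each cell was also thinned to 1000 UMIs outside immunoglobulin genes. At least 2 UMIs of the list were then found in 36.4, 10.6 and 24.5% of plasma cells, 12, 3.85 and 2.20% of B cells and 26.8, 13.5 and 14.3% of T cells thinned alike. The thinned shares have no interval and rank nothing. Without thinning, 5 or more UMIs were found in 20.7, 7.63 and 8.43% of control, HFD and CCl4 T cells. Their intervals were 18.05 to 23.6, 5.17 to 10.8 and 5.36 to 12.5%. The HFD interval overlapped that of the HFD plasma cells. In B cells the share was 3.82, 0.581 and 0%. The control share was thus above the HFD share in T and B cells too, with overlapping intervals in B cells.

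Of 10 tested cell cycle genes 9 were lower in HFD than in control plasma cells and none higher, with a median log2 ratio of -1.78, where 19.5% of all tested genes were lower. In CCl4 4 of 10 were lower than in control, against 20.3% of all genes, and 4 of 7 were higher than in HFD, against 5.61%. Within IgA cells Mki67 had 381 CPM in control, 166 CPM in HFD and 119 CPM in CCl4. The whole list put CCl4 above HFD there, with 4234, 1590 and 3062 CPM in control, HFD and CCl4 IgA cells. At least 5 UMIs of it were found in 45, 11.1 and 25% of these cells. The CCl4 interval (7.27 to 52.4%) overlapped both others. In the HFD library 11.1% of IgA and 5.19% of IgG cells had 5 or more UMIs of the list, with intervals that overlapped (5.68 to 19.0% and 1.43 to 12.8%).

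Receptors for survival signals were present in every library. TACI (Tnfrsf13b), a receptor for BAFF and APRIL, had 322, 188 and 178 CPM, and Cd28 had 222, 188 and 134 CPM. Mcl1, the anti-apoptotic protein on which plasma cells depend, had 490, 440 and 329 CPM, with intervals of 377 to 626, 386 to 499 and 232 to 454 CPM that overlapped. Of 18 genes of regulatory and inflammatory factors, 7, 12 and 8 had a UMI in plasma cells of the control, HFD and CCl4 libraries. Ccl5, a chemokine of T and NK cells, gave the most, with 46, 67 and 47 UMIs (352, 123 and 418 CPM), and 1 control cell held 59 of the 104 UMIs of the list in its library. Il10 gave 2 UMIs over all plasma cells, both in the HFD library, Tnf and Il6 gave none, and Tgfb1 gave 4, 5 and 0 UMIs. Cd274, the checkpoint ligand PD-L1, gave 13, 48 and 9 UMIs.

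Markers of other liver cells were looked for in the members. The Kupffer cell list gave 0, 16 and 1 UMIs over the plasma cells of the control, HFD and CCl4 libraries, basophil genes none, and endothelial genes 1, 12 and 0. The monocyte list gave 10, 181 and 18 UMIs (76.6, 333 and 160 CPM), against 493, 711 and 585 CPM in B cells. Most were Fn1, which hepatocytes also make, with 10, 146 and 18 UMIs, and Lyz2 gave 0, 25 and 0. Its part in the Ly6c2 levels was not tested. Granulocyte genes gave 147, 367 and 1 UMIs, of which 139 in the control and 143 in the HFD library were in 1 cell, and globin and other erythroid genes gave 387, 792 and 452, of which 375, 229 and 268 were in 1 cell. At least 3 UMIs of some such list were found in 8 of 21, 30 of 177 and 7 of 41 members (38.1, 16.9 and 17.1%). Without those members the ER folding genes were lower than control in 7 of 26 genes for HFD and 8 of 26 for CCl4, where 548 of 2019 and 549 of 2023 of all tested genes were lower. All 14 tested cell cycle genes were then lower in HFD, while Ly6c2 was at 3.53 times the control level in HFD and Fos at 5.52 times. Barcodes in common numbered 36 between the control and HFD libraries, 49 between control and CCl4 and 52 between HFD and CCl4, and no barcode was a plasma cell in more than 1 library.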

How the data were processed

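Counts of UMIs per gene and barcode were deposited by the authors, unnormalized, for 3 libraries (10x Chromium 3′ kit, Cell Ranger 7.2.0 per the file headers). The study's methods name mm10 and the submitters' processing notes name GRCm39, so the build of the files is uncertain. The selection of barcodes is not given in the sources used here. Libraries held 49613255 (control), 34985786 (HFD) and 34061186 (CCl4) UMIs, with at least 1629, 1827 and 1671 per barcode. Positions came from GENCODE M21 (GRCm38), where 52081 of 55357 gene identifiers matched, and promoters from RefSeq.

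Plasma cells, B cells, plasmacytoid dendritic cells and T cells were chosen by the UMI thresholds given with the results. No doublet caller was run. Members with 3 or more UMIs of another cell type's list were left out as an alternative. UMIs were summed per library and class and expressed per 1e+06 UMIs outside immunoglobulin genes (CPM), or per 1e+06 of all UMIs for immunoglobulin genes. A 2-fold difference was taken on CPM + 10 among genes at 100 CPM or more. Intervals were Poisson for CPM, Clopper-Pearson for shares of cells and conditional for ratios (Python 3.11.15, scipy 1.17.1). Only the ratios and their conditional intervals were tested on simulated data. Named genes were those of the rule, the constant genes, and up to 6 genes per list with most UMIs plus those past the fold. The 12 with the highest ratio to B cells in the HFD library, among those above B cells in every library, were also named. Genes of the IgA against IgG comparison were named after their values were seen. The members and gene lists were chosen with earlier results of these data known.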

Additional observations from a re-analysis of the deposited data

How the results depend on the processing

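A share, median or ratio was taken as moved when it left the interval of the value given, and a number of genes or of cells with a variable gene when it changed by over 1.5 times. Of 134 alternative values, 33 moved and 101 did not. The plasma cell share of the HFD library was 1.66% with 1 UMI of the other rule genes, 0.778% with 4, 1.67% with no condition on Ms4a1, Siglech and Cd3e and 1.13% without members carrying other markers. The CCl4 share was 0.204% with 4 UMIs of the other rule genes, and the control share 0.116% without members carrying other markers. The HFD share exceeded both others in every one of these. With Jchain counted as immunoglobulin the HFD median was 33.8%. At 30 heavy constant UMIs and 90% in 1 gene the control library had 0 IgG cells. Light variable genes were assigned to 20, 150 and 32 cells of the control, HFD and CCl4 libraries at 2 UMIs and 50%, and to 3, 13 and 3 at 10 UMIs and 90%.

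Counts of genes depended on the minimum level. At 50 CPM, 535 genes were higher and 756 lower in HFD than in control, 622 and 853 in CCl4 than in control, and 209 and 209 in CCl4 than in HFD. At 200 CPM the counts were 179 and 136, 216 and 156, and 41 and 38. Without members carrying other markers 548 genes were lower in HFD than in control. Scaled to all UMIs, 39 genes were lower in CCl4 than in HFD, and against B cells 64 were higher and 126 lower. In IgA cells alone, chosen after seeing the data, 216 were higher and 185 lower in CCl4 than in HFD. The thinned share of cells with an Xbp1 UMI over that of B cells was 9.88 in the HFD library at 500 UMIs and 7.42 at 1000. No paired analysis was possible because each condition had 1 library, and for the same reason no replicate could be left out. Depth limits the homing receptors, as Ccr9 and Ccr10 rest on 21 UMIs or fewer per library.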
